A study of Homo sapiens with 9 samples.

Results

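The genes described are IRF1, IRF2, IRF3, IRF7 and IRF9, which encode interferon regulatory factors, STAT2 and STAT3, which encode signal transducers and activators of transcription, and JAK1, which encodes a Janus kinase. They were taken from the count table by matching these symbols to their Ensembl identifiers, and all 8 were found among the 60664 identifiers of the table. All 8 also passed the filter on low counts, as members of the 16903 genes tested. Levels were measured by RNA sequencing in A549, an established human lung adenocarcinoma line, in 9 libraries. Of these, 3 carried a short hairpin RNA labelled against HES1 (shHES1), 3 one labelled against HES4 (shHES4) and 3 a control hairpin (shCtrl), and the labels list no other treatment, no added interferon and no time point. Both target genes encode repressors of transcription of the basic helix-loop-helix class. The labels name 1 hairpin per group and do not say whether a group is a clone or a pool, or whether each replicate was its own culture. The p-values therefore reflect the spread between these libraries alone, and that spread may be technical.

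Type I and type III interferons bind receptors that carry Janus kinases, among them JAK1. The activated kinases phosphorylate STAT proteins, and STAT2 joins with IRF9 in the transcription factor complex ISGF3, which binds interferon-stimulated response elements and turns on antiviral genes. IRF3 and IRF7 act further upstream, where sensors of viral nucleic acid lead to their phosphorylation and to transcription of interferon genes, and IRF7 is itself a known target of ISGF3. IRF1 activates antigen-presentation genes, IRF2 can compete with IRF1 for the same sites, and STAT3 is the main transducer of interleukin 6 and related cytokines that signal through gp130.

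In the libraries labelled shHES1, HES1 was not lowered (9.11, 6.40 and 8.32 CPM, against 6.99, 6.55 and 7.17 CPM in shCtrl; log2 fold change 0.20, 95% interval -0.05 to 0.46), while HES4 was lower in both shHES groups, by a log2 fold change of -0.59 in shHES1 and -0.46 in shHES4. CPM is a count scaled to a common library size with TMM factors, except in the sums of markers, which were scaled by total counts alone. The third shCtrl library stood apart from the other 2, with a chi-square per degree of freedom of 6.36 and 4.81 against them, where other pairs within a group gave 2.31 to 3.18. Pairs with shHES4 libraries gave 5.84 to 6.21 for the first shCtrl library and 5.95 to 6.58 for the second. The first shCtrl library thus differed from each shHES4 library by less than from the third shCtrl library. Against shHES4 libraries the value was 9.78 to 10.8 for the third shCtrl library. Total counts were 22.8 to 27.6 M per library, and 5.89 to 7.16% of counts were mitochondrial, with the highest share in that shCtrl library. Without that library edgeR called 0 of the 8 genes in shHES1 against shCtrl, 3 in shHES4 against shCtrl and 6 in shHES1 against shHES4, where all libraries gave 0, 4 and 6. The epithelial markers expected of the line summed to 5180 to 5267 CPM in shHES1, 6086 to 6317 CPM in shHES4 and 5694 to 5828 CPM in shCtrl, with no marker at 0. The groups were fully separated for this sum, with shHES4 highest and shHES1 lowest. Of the 6 markers, 1 was called higher and 3 lower in shHES1 against shCtrl, where 9.73% of all genes were called. In shHES4 against shCtrl 2 were higher and 0 lower, where 5.94% of all genes were called. The part of this sum in the results below was not tested.

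Promoter letters are shown first for members that rose in shHES4, because HES proteins bind DNA at known short motifs and because the other motifs searched are those of the members' own protein families. RefSeq promoter windows (GRCh38.p14, 250 bases before to 50 after a start, 300 in all) were on hand for 5 of the 8 genes, in 7 windows; IRF2, IRF3 and IRF7 are named only. Both strands were searched for the interferon-stimulated response element (GAAA, any 2 bases, GAAA), a relaxed form with 1 A fewer (GAANNGAAA; neither form contains the other), the STAT-binding GAS element TTCNNNGAA, the E box CACGTG, the class C site CACGCG and the N box CACNAG. Of all 35116 promoter windows, 3.57, 7.66, 7.66, 7.26, 11.4 and 38% held them, in that order. In the sequences below, written 5′ to 3′ on the strand of the gene, capitals mark a match.
IRF1, chr5:132490799-132491023, minus strand, upstream of every annotated exon: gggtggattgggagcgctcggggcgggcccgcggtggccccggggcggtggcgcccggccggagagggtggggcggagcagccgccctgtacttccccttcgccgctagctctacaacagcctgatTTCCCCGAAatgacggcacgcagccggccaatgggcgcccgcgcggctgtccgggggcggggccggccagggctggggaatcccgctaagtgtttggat
STAT2, chr12:56360156-56360357, minus strand, upstream of every annotated exon: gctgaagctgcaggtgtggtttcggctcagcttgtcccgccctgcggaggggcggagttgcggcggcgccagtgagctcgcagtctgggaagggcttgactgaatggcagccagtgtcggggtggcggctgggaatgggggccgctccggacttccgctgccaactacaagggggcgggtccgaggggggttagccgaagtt
IRF9, chr14:24161191-24161220, plus strand: gacCACGTGatTTCTGGGAAaaggccctcc
IRF9, chr14:24161219-24161248, plus strand: ccctggaggaGAACTGAAActtagggtggg

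In the IRF1 window the GAS letters TTCCCCGAA begin 124 bases upstream of the RefSeq start. The IRF9 window held the E box 71 bases upstream of its start, GAS letters (TTCTGGGAA) at 63 bases and the relaxed response element (GAACTGAAA) at 36 bases, besides N box letters at 102 bases. Both IRF9 stretches lie within annotated exons in GENCODE release 29, and the gene of those exons was not recorded. None of the 6 motifs was found in the windows of STAT2 and STAT3, which says only that these letters are not in those 300 bases. In 2 of the JAK1 windows only N box letters were found, a motif that 38% of all promoters hold. A match is a description of letters and not evidence of a bound site.

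Per kilobase of their longest coding transcript, STAT3 was the most abundant of the 8 genes and IRF2 the least. In shCtrl the levels were 53.1 CPM per kb for STAT3, 44.8 for IRF3, 33.1 for JAK1, 28.6 for STAT2, 23.6 for IRF9, 18.4 for IRF7, 15.8 for IRF1 and 7.87 for IRF2. Ranges over the 3 shCtrl libraries did not overlap between any neighbours in this order. STAT3 stood above 92.3% of the tested genes on this scale and IRF2 above 59.1%. Summed over the 9 libraries, IRF2 had the fewest counts of the 8 genes, 4179, and STAT3 the most, 60303. The libraries labelled shHES1 kept the same order of means. In shHES4, STAT2 (36.8 CPM per kb) came above JAK1 (34.3 CPM per kb), and IRF9 (26.1 to 28.2 CPM per kb) and IRF7 (25.7 to 26.8 CPM per kb) overlapped. The order depends on the transcript length used: with all exons of a gene merged, JAK1 came above IRF3 and IRF7 above IRF9.

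**Figure D1:**
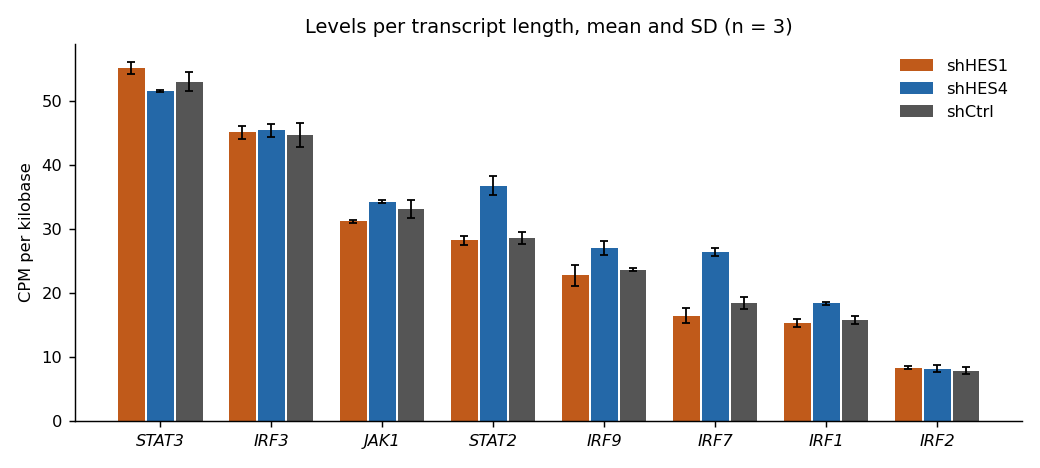
Mean level of each gene in CPM per kilobase of its longest coding transcript (vertical axis), with bars for shHES1, shHES4 and shCtrl and the SD over 3 libraries. STAT3 stood highest at 53.1 CPM per kb in shCtrl and IRF2 lowest at 7.87, and the shHES4 bars of IRF7 and STAT2 stood above those of shHES1 and shCtrl.

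In shHES4 against shCtrl, 4 of the 8 genes rose (IRF7, STAT2, IRF1 and IRF9) and 0 fell, at an adjusted p under 0.05 in edgeR's quasi-likelihood test over all genes. Of all tested genes 5.94% were called in this comparison, 3.24% as higher and 2.7% as lower. The median log2 fold change of the 8 genes was 0.12, and that of all genes was 0.00. The 4 genes that rose are all known to be interferon-inducible, and a part of interferon in their rise was not tested. The groups did not overlap for these 4 genes, as for 22.4% of all genes. IRF2, IRF3, STAT3 and JAK1 did not pass the test. In bulk libraries fewer cells with a transcript and less of it per cell cannot be told apart, for these and all later differences.

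IRF7 (ENSG00000185507), the factor that drives most interferon alpha genes, changed the most. The gene spans 612553 to 615999 of chromosome 11 (GRCh38, minus strand), and its longest coding transcript has 9 exons. Its level was 54.8, 52.6 and 54.9 CPM in shHES4, against 37.5, 35.9 and 39.8 CPM in shCtrl. Every shHES4 library lay above every shCtrl library, and the gap between the groups was wider than the spread within either. The means were 54.1 ± 1.31 CPM in shHES4 and 37.7 ± 1.98 CPM in shCtrl (SD, n = 3 each), a 1.44-fold difference, which is 0.52 ± 0.05 (SE) on the log2 scale (adjusted p 8.89e-06).

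STAT2 (ENSG00000170581), the STAT that binds IRF9 in ISGF3, spans 56341597 to 56360155 of chromosome 12 (minus strand, 24 exons). It read 120.7, 114.5 and 124.6 CPM in shHES4, against 93.2, 96.5 and 90.0 CPM in shCtrl. The groups did not overlap. A mean of 119.9 ± 5.07 CPM in shHES4 stood against 93.2 ± 3.22 CPM in shCtrl, a 1.29-fold difference (log2 fold change 0.36 ± 0.04, adjusted p 1.62e-05).

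IRF9 (ENSG00000213928), the DNA-binding subunit of ISGF3, spans 24161053 to 24166565 of chromosome 14 (plus strand, 9 exons). It read 51.8, 47.9 and 49.3 CPM in shHES4, against 43.0, 44.0 and 43.4 CPM in shCtrl, again with no overlap. The log2 fold change was 0.19 ± 0.05 (adjusted p 0.0366, the highest of the 4 rises). Its call was lost in 7 of the 9 fits that left out 1 library: without any 1 of the shCtrl libraries (adjusted p 0.0769 to 0.0877), without any 1 of the shHES4 libraries (0.0510 to 0.147) and without the third shHES1 library (0.0524). A read-through gene on the same strand, ENSG00000259529, contains all 1838 bases of this IRF9 transcript, and how the authors' counting split reads between them is not given in the sources used here. That gene averaged 25.4 ± 1.85 CPM in shHES4 and 19.5 ± 2.75 CPM in shCtrl (log2 fold change 0.39 ± 0.10, adjusted p 0.0202), and with the counts of both summed the log2 fold change was 0.26 and the adjusted p 0.00789.

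IRF1 (ENSG00000125347), an activator of antigen-presentation genes, spans 132481609 to 132490798 of chromosome 5 (minus strand, 10 exons). It read 64.9, 66.8 and 65.6 CPM in shHES4, against 54.5, 55.6 and 59.1 CPM in shCtrl. All shHES4 libraries lay above all shCtrl libraries, and the closest pair was the third shCtrl library and the first of shHES4. IRF1's log2 fold change was 0.22 ± 0.04 (adjusted p 0.00446). Genes on the opposite strand overlap exons of IRF1, IRF1-AS1 over 1716 bases and ENSG00000283782 over 469 bases, and reads from opposite strands cannot be told apart if counting ignored strand. IRF1-AS1 was far less abundant, at 3.86 to 4.39 CPM in shHES4 and 2.92 to 3.53 CPM in shCtrl (log2 fold change 0.35 ± 0.15, adjusted p 0.202). ENSG00000283782 stood at 49.8 to 52.3 CPM in shHES4 and 50.5 to 61.2 CPM in shCtrl (log2 fold change -0.11 ± 0.06, adjusted p 0.397).

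**Figure D2:**
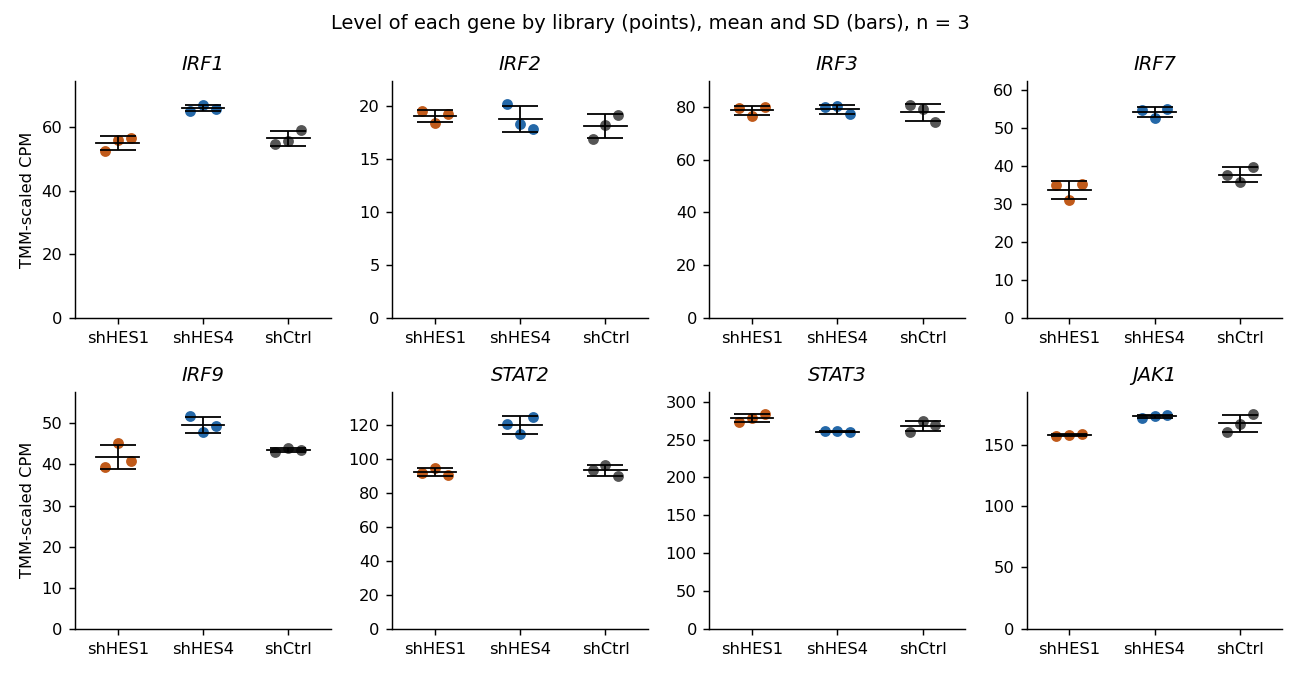
Level of each of the 8 genes in TMM-scaled CPM (vertical axes, each from 0) in the libraries of shHES1, shHES4 and shCtrl, with points for libraries and bars for the mean and SD (n = 3). The shHES4 points of IRF7 (52.6 to 54.9 CPM), STAT2, IRF1 and IRF9 lie above all points of both other groups, and the groups overlap for IRF2 and IRF3.

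The other 4 genes did not pass the test in shHES4. STAT3 (ENSG00000168610, chromosome 17, 42313324 to 42388568, minus strand, 24 exons) read 260.6, 261.2 and 259.6 CPM in shHES4, against 260.3, 274.5 and 268.6 CPM in shCtrl. The shHES4 libraries were close to one another and overlapped the lowest shCtrl library, and the log2 fold change was -0.04 with a 95% interval of -0.10 to 0.02 (adjusted p 0.528). JAK1 (ENSG00000162434, chromosome 1, 64833229 to 64966504, minus strand, 25 exons) read 171.6, 173.4 and 173.7 CPM in shHES4, against 160.3, 166.4 and 174.5 CPM in shCtrl, with an interval of -0.02 to 0.12 (adjusted p 0.471). The third shCtrl library lay above every shHES4 library for JAK1.

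IRF3 (ENSG00000126456, chromosome 19, 49659569 to 49665875, minus strand, 8 exons) is the constitutively expressed factor upstream of interferon beta. It read 79.9, 80.2 and 77.1 CPM in shHES4, against 80.5, 79.0 and 74.3 CPM in shCtrl, and the 95% interval of its log2 fold change ran from -0.07 to 0.11 (adjusted p 0.848). IRF2 (ENSG00000168310, chromosome 4, 184387713 to 184474580, minus strand, 9 exons) read 20.2, 18.3 and 17.8 CPM in shHES4, against 16.9, 18.2 and 19.2 CPM in shCtrl, with an interval of -0.10 to 0.20 (adjusted p 0.779). For both genes the groups overlapped, and IRF3's interval ends below the log2 fold changes measured for IRF1, STAT2 and IRF7. Exons of IRF3 overlap those of BCL2L12 on the opposite strand over 734 bases, and BCL2L12 averaged 34.6 ± 1.94 CPM in shHES4 and 34.6 ± 0.882 CPM in shCtrl.

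In shHES1 against shCtrl, 0 of the 8 genes passed edgeR's test, where 9.73% of all genes did. These were 887 higher genes (5.25%) and 757 lower genes (4.48%), or 1174 higher genes of 1723 called with scaling by total counts alone. DESeq2 also called 0 of the 8, and at an unadjusted p under 0.05 edgeR gave 2, IRF7 and JAK1. The median log2 fold change of the 8 genes was -0.03, and that of all genes was 0.00. STAT2, IRF1 and IRF9, which rose in shHES4, had log2 fold changes of -0.02, -0.04 and -0.06 here.

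IRF7 read 35.0, 31.0 and 35.2 CPM in shHES1, against 37.5, 35.9 and 39.8 CPM in shCtrl. The groups did not overlap, although the gap between the nearest libraries was under 1 CPM. Its log2 fold change was -0.16 ± 0.06 (adjusted p 0.0890). JAK1 read 156.6, 157.5 and 158.5 CPM in shHES1, against 160.3, 166.4 and 174.5 CPM in shCtrl (log2 fold change -0.08 ± 0.03, adjusted p 0.140). These were the 2 members whose groups did not overlap in this comparison, and 27.6% of all genes showed no overlap.

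The remaining 6 genes overlapped between shHES1 and shCtrl. STAT2 read 91.4, 94.6 and 90.2 CPM in shHES1, against 93.2, 96.5 and 90.0 CPM in shCtrl, with a 95% interval of the log2 fold change from -0.10 to 0.07 (adjusted p 0.848). IRF1 read 52.5, 55.8 and 56.3 CPM in shHES1, against 54.5, 55.6 and 59.1 CPM in shCtrl, with an interval of -0.13 to 0.05 (adjusted p 0.666). IRF9 read 39.4, 45.1 and 40.9 CPM in shHES1, against 43.0, 44.0 and 43.4 CPM in shCtrl, with an interval of -0.17 to 0.05 (adjusted p 0.582). The shHES1 libraries of IRF9 were spread more widely than those of shCtrl and included both the lowest and the highest of the 6 values. STAT3 read 273.7, 278.2 and 283.4 CPM in shHES1, against 260.3, 274.5 and 268.6 CPM in shCtrl, with an interval of -0.01 to 0.12 (adjusted p 0.286). IRF3 (76.6 to 79.7 CPM in shHES1) and IRF2 (18.5 to 19.6 CPM in shHES1) had log2 fold changes of 0.01 and 0.08, with intervals of -0.07 to 0.10 and -0.07 to 0.23. None of these intervals excludes a small change, and those of STAT2, IRF1 and IRF9 exclude rises of the size measured in shHES4.

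**Figure D3:**
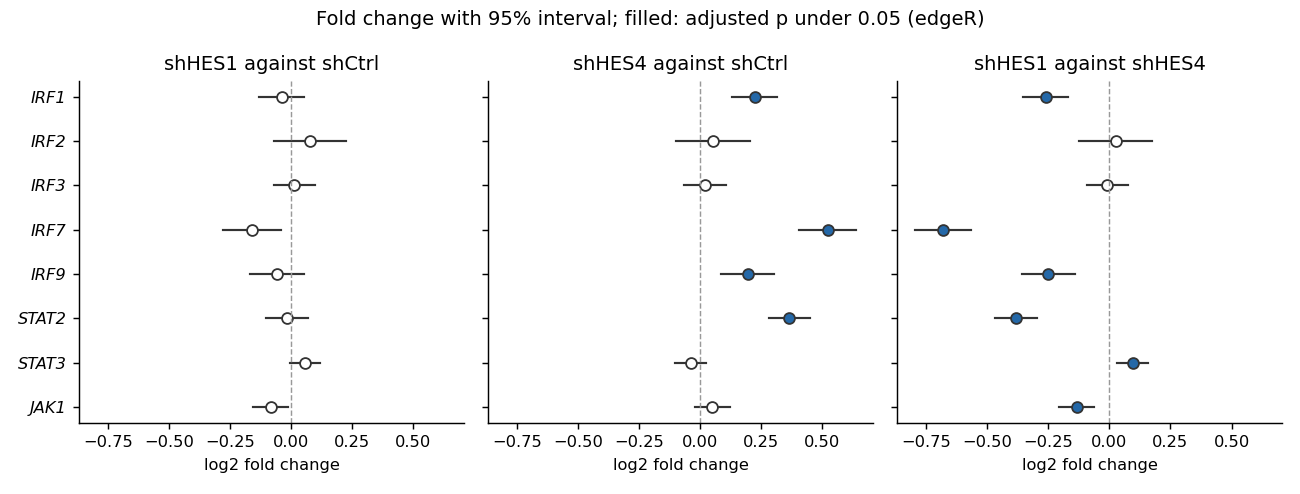
Log2 fold change of each gene (horizontal axes) with its 95% interval, in panels for shHES1 against shCtrl, for shHES4 against shCtrl and for the direct comparison of the hairpins, with filled points for an adjusted p under 0.05 in edgeR. No point is filled in the first panel, 4 are filled on the positive side in the second, and in the third 5 are filled on the negative side and STAT3 on the positive side.

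The comparisons with shCtrl share the shCtrl libraries, so the difference between the hairpins was tested directly. In shHES1 against shHES4, 5 of the 8 genes were lower (IRF7, STAT2, IRF1, IRF9 and JAK1) and 1 was higher (STAT3), where 15.1% of all genes were called (7.41% higher, 7.65% lower). The groups did not overlap for these 6 genes, as for 33% of all genes. The median log2 fold change of the 8 genes was -0.19, and that of all genes was 0.00.

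IRF7 averaged 33.7 ± 2.36 CPM in shHES1 and 54.1 ± 1.31 CPM in shHES4, a log2 fold change of -0.68 ± 0.05 (adjusted p 1.09e-07). STAT2 averaged 92.1 ± 2.25 CPM in shHES1 and 119.9 ± 5.07 CPM in shHES4, a log2 fold change of -0.38 ± 0.04 (adjusted p 2.60e-06). IRF1 and IRF9 had log2 fold changes of -0.26 ± 0.04 and -0.25 ± 0.05, with adjusted p of 4.26e-04 and 0.00297. Transcripts of the interferon-inducible members were thus lower in shHES1 than in shHES4.

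JAK1, the kinase shared by interferon and gp130 receptors, was lower by a small amount, at 157.5 ± 0.967 CPM in shHES1 and 172.9 ± 1.14 CPM in shHES4 (log2 fold change -0.13 ± 0.03, adjusted p 0.0120). Its call was lost without the first shHES1 library (adjusted p 0.0546). STAT3 was the only member higher in shHES1, at 278.4 ± 4.82 CPM, against 260.5 ± 0.854 CPM in shHES4 (log2 fold change 0.10 ± 0.03, adjusted p 0.0391). That call was lost without any 1 of the 6 libraries compared, with adjusted p of 0.0625 to 0.158. IRF2 and IRF3 had log2 fold changes of 0.03 (95% interval -0.12 to 0.18) and -0.01 (-0.09 to 0.08).

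**Figure D4:**
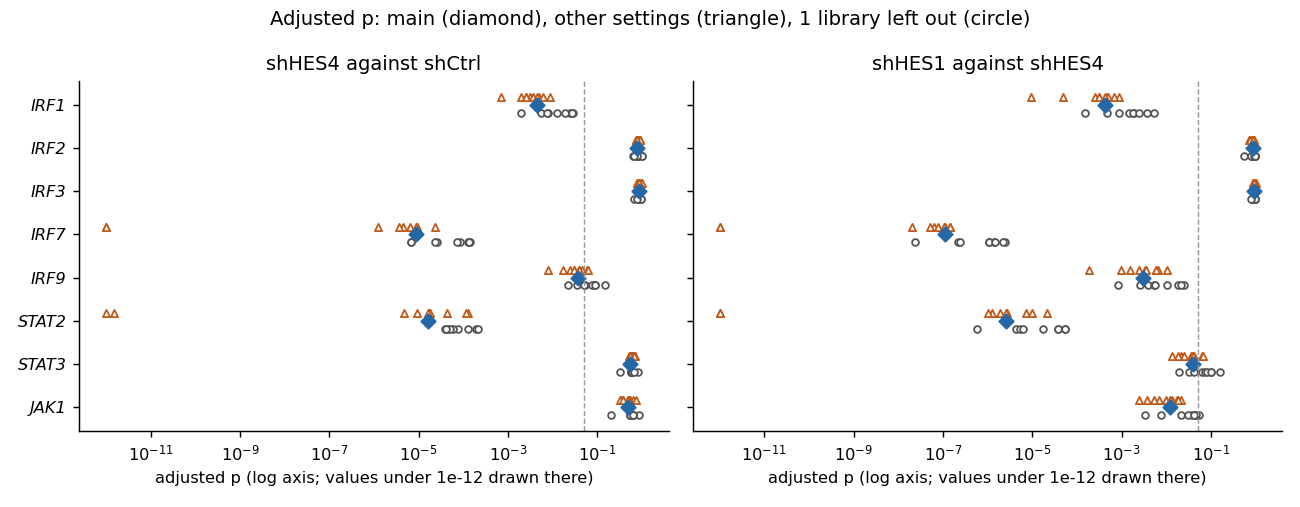
Adjusted p of each gene (horizontal log axes) in shHES4 against shCtrl and shHES1 against shHES4, for the test as reported (diamonds), other settings (triangles) and fits without 1 library (circles), with a dashed line at 0.05. IRF1, IRF7 and STAT2 stay left of the line in both panels, while IRF9 crosses it in shHES4 against shCtrl and STAT3 and JAK1 cross it in shHES1 against shHES4.

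Genes with the nearest patterns over the 9 libraries were sought among 11563 genes with a symbol and at least 5 CPM, by the root mean square difference of log2 CPM after centring each gene on its mean. For IRF7 they were AREG, which encodes the growth factor amphiregulin (0.0670), and the antiviral GTPase gene MX1 (0.0769), where IRF7's own spread on this measure was 0.298. Next to STAT2 stood GALNT12 (0.0400) and APOL1 (0.0412), for a spread of 0.180. IRF1 was nearest to CARD6 (0.0356) and MDM2 (0.0362), for a spread of 0.122, and IRF9 to VEGFC (0.0346) and TRAF1 (0.0361), for a spread of 0.120. For STAT3, with a spread of 0.0450, the nearest were HACD2 (0.0144) and SPTY2D1 (0.0190), and for JAK1, with a spread of 0.0627, LRP10 (0.0150) and MED29 (0.0211). These distances describe the same 9 libraries in which the members were measured.

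Upstream of the members are the interferon genes themselves. Counts called in this and the later lists stand beside shares over all genes of 9.73% in shHES1 and 5.94% in shHES4 against shCtrl. Between the hairpins that share was 15.1%. Of 13 interferon ligand genes, 6 passed the filter. IFNB1 read 4.26 to 5.31 CPM in shHES1, 4.47 to 5.09 CPM in shHES4 and 3.49 to 4.42 CPM in shCtrl. Neither shHES group passed the test for IFNB1 (adjusted p 0.398 in shHES1 and 0.343 in shHES4). IFNL1, a type III interferon gene, averaged 16.8 ± 0.179 CPM in shHES1, 17.8 ± 1.78 CPM in shHES4 and 16.8 ± 2.16 CPM in shCtrl. The median log2 fold change of the 6 against shCtrl was 0.26 in shHES4, with 5 positive, and -0.15 in shHES1, with 2 positive. In shHES4 against shCtrl 0 of the 6 were called by edgeR or DESeq2 (2 at an unadjusted p under 0.05 in edgeR). Tested directly, 2 were lower in shHES1 than in shHES4, IFNL2 (log2 fold change -0.65 ± 0.10, adjusted p 3.07e-04) and IFNL3 (-0.65 ± 0.13, adjusted p 0.00178), and 2 were called in each of the 19 alternatives. In shHES1 against shCtrl 1 fell, IFNL2 (log2 fold change -0.39 ± 0.11, adjusted p 0.0260), whose near-identical copy IFNL3 makes its count uncertain and whose call was lost without the first or the second library of shHES1 or of shCtrl (adjusted p 0.0661 to 0.128).

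Of 6 interferon receptor genes, 1 rose in shHES1. In shHES4 0 were called by edgeR or DESeq2, and 0 had an unadjusted p under 0.05 in edgeR. IFNGR1, the ligand-binding chain of the interferon gamma receptor, read 184.7, 174.7 and 198.0 CPM in shHES1, 133.4, 135.7 and 129.0 CPM in shHES4, and 132.2, 134.2 and 131.6 CPM in shCtrl. The shHES1 libraries lay above all others and the other 2 groups overlapped. Its log2 fold change was 0.49 ± 0.04 in shHES1 (adjusted p 3.39e-07) and 0.00 in shHES4. IFNAR1 and IFNAR2, the chains of the type I receptor whose signal STAT2 and IRF9 carry, had log2 fold changes of 0.06 and 0.04 in shHES1 and of -0.04 and -0.01 in shHES4, and neither passed.

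Among 18 sensors, adaptors and kinases that act upstream of IRF3 and IRF7, 3 rose in shHES4 and 0 fell, where 5.94% of all genes were called. Their median log2 fold change was 0.07. RIGI, which encodes a sensor of viral RNA, had 160.3, 155.4 and 154.4 CPM in shHES4, against 137.1, 119.7 and 123.3 CPM in shCtrl (log2 fold change 0.31 ± 0.04, adjusted p 2.41e-04). MYD88, the adaptor through which Toll-like receptors reach IRF7, rose by a log2 fold change of 0.26 ± 0.04 (adjusted p 0.00115). TLR3 was the third, at 0.32 ± 0.09 with an adjusted p of 0.0452, and lost its call in 8 of the 9 fits without 1 library, except that without the third shCtrl library, as it did in DESeq2 (adjusted p 0.0931). In shHES1 RIGI was the only 1 of the 18 called, as lower (-0.15 ± 0.04, adjusted p 0.0454), and that call was lost without the first shCtrl library (adjusted p 0.223), without any 1 of the shHES1 libraries (0.0870 to 0.171) and without any 1 of the shHES4 libraries (0.0511 to 0.0615). With scaling by total counts the called genes were 2 higher and 0 lower. In shHES1 against shHES4, 4 of the 18 were lower and 0 higher.

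Related factors were read beside the shares of all genes called against shCtrl, 9.73% in shHES1 and 5.94% in shHES4. Of 6 tested genes of the other IRF family and IRF2-binding genes 0 were called by edgeR or DESeq2 in either comparison with shCtrl (2 in each at an unadjusted p under 0.05 in edgeR), and the median log2 fold change was -0.03 in shHES1 and -0.10 in shHES4 (1 was called in shHES4 without the first shHES4 library or without a filter on low counts). Among the other 8 STAT and Janus kinase genes, 1 rose and 1 fell in shHES1, and 2 rose and 0 fell in shHES4. STAT6, the interleukin 4 transducer, was higher in both, by 0.12 ± 0.03 in shHES1 (adjusted p 0.0357) and 0.15 ± 0.03 in shHES4 (adjusted p 0.0143). Without the second shHES4 library its adjusted p in shHES4 was 0.0710, and in shHES1 the call was lost in 5 fits without 1 library (without any shCtrl library or the first or second shHES1 library; 0.0548 to 0.153). The kinases that partner JAK1 did not pass: TYK2 had log2 fold changes of -0.04 in shHES1 and 0.03 in shHES4, and JAK2 of -0.03 and -0.10.

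Of all genes, 5.94% were called in shHES4 and 9.73% in shHES1 against shCtrl. Near these shares, of 17 feedback and phosphatase regulators of the pathway, 1 rose in shHES4, 2 rose in shHES1 and 0 fell in either. In shHES4 it was USP18, which encodes an ISG15 protease that restrains the type I receptor, at 65.4, 65.2 and 60.3 CPM, against 49.8, 46.5 and 49.9 CPM in shCtrl (log2 fold change 0.38 ± 0.05, adjusted p 4.81e-05). The groups did not overlap. In shHES1 the risers were SOCS6 (0.16 ± 0.04, adjusted p 0.00875) and PIAS3, an inhibitor of STAT3 (0.23 ± 0.06, adjusted p 0.0188). PIAS3 lost its call without the first or the second shCtrl library or the first or the third shHES1 library, with adjusted p of 0.0504 to 0.0998.

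Downstream, most of the listed ISGF3 target genes rose in shHES4. Of 30 ISGF3 target genes 25 rose and 0 fell in shHES4 against shCtrl, with a median log2 fold change of 0.39, beside 0.00 for all genes. In shHES1 against shCtrl 14 fell and 0 rose, with a median of -0.11; without the third shHES1 library 9 were called. Between the hairpins, 27 of the 30 were lower in shHES1 than in shHES4 and 0 were higher (median -0.49). OAS1, which encodes an activator of RNA decay, had 172.7, 172.6 and 179.9 CPM in shHES1, 310.4, 304.6 and 309.9 CPM in shHES4, and 227.0, 227.5 and 226.0 CPM in shCtrl. The 3 groups were fully separated, with shHES4 highest and shHES1 lowest. Its log2 fold change was -0.37 ± 0.03 in shHES1 (adjusted p 1.94e-07) and 0.44 ± 0.03 in shHES4 (adjusted p 5.23e-08). MX1 had -0.25 ± 0.03 in shHES1 and 0.44 ± 0.03 in shHES4, and OAS2 and OAS3 fell in shHES1 by 0.39 and 0.25 on the log2 scale. IFIT2 and IFIT3, inhibitors of translation of viral RNA, rose in shHES4 by 0.46 ± 0.03 and 0.39 ± 0.03. In shHES1 STAT2 and IRF9 were not called, while 14 of these targets were lower.

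IRF1 target genes also rose in shHES4, 13 of 21 tested with 0 lower and a median log2 fold change of 0.34. The leading ones serve antigen presentation and host defence: TAP1, a peptide transporter (0.43 ± 0.03), APOL1 (0.40 ± 0.04), PSMB9, an immunoproteasome subunit (0.55 ± 0.07), and GBP1, a guanylate-binding protein (0.46 ± 0.06). TAP1 read 158.4, 156.1 and 158.9 CPM in shHES4, against 118.4, 116.2 and 116.5 CPM in shCtrl. In shHES1 4 rose and 1 fell, with a median of 0.06, and in shHES1 against shHES4 14 were lower and 1 was higher, with a median of -0.25. CIITA, the master regulator of MHC class II genes, rose in shHES1 by 0.87 ± 0.12 (adjusted p 9.12e-05), at 8.03, 8.94 and 7.71 CPM, against 4.25, 5.15 and 4.12 CPM in shCtrl. CXCL11 (0.47 ± 0.09) and GBP3 (0.38 ± 0.08) also rose in shHES1, and WARS1 fell by 0.18 ± 0.03. Several genes of both lists are known to respond to more than 1 of the factors described, so neither list belongs to its named factor alone.

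**Figure D5:**
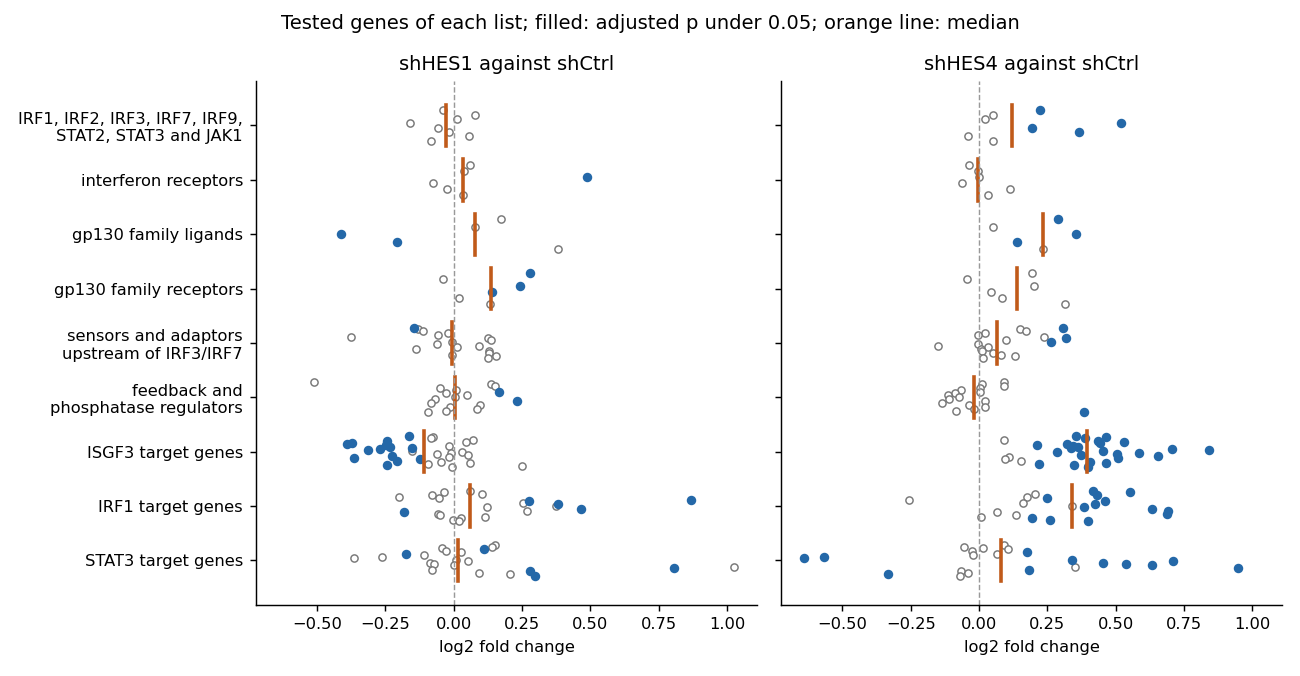
Log2 fold change (horizontal axes) of the tested genes of 9 lists in shHES1 against shCtrl and shHES4 against shCtrl, with filled points for an adjusted p under 0.05 in edgeR and an orange line at each list's median. ISGF3 target genes lie to the right in shHES4 (median 0.39, 25 of 30 filled) and to the left in shHES1 (median -0.11, 14 filled).

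STAT3 has its own inputs, the gp130 cytokines. Of 5 tested ligand genes, 3 rose in shHES4, and in shHES1 2 fell and 0 rose (2 fell and 2 rose with scaling by total counts). IL11 had 17.3, 16.6 and 14.7 CPM in shHES1, 28.8, 25.5 and 28.4 CPM in shHES4, and 21.2, 22.5 and 21.0 CPM in shCtrl, with log2 fold changes of -0.41 ± 0.07 in shHES1 (adjusted p 0.00112) and 0.35 ± 0.07 in shHES4 (adjusted p 0.00442). The groups were fully separated for IL11. IL6 rose in shHES4 (0.29 ± 0.05, adjusted p 0.00330). CLCF1, another cytokine of the family, fell in shHES1 (-0.21 ± 0.04, adjusted p 0.00201) and was called higher in shHES4 (0.14 ± 0.04, adjusted p 0.0422), a call lost in 8 of the 9 fits without 1 library, with the exception of that without the third shCtrl library. Of 6 tested gp130 receptor genes, IL6R (0.28 ± 0.07), LIFR (0.24 ± 0.06) and OSMR (0.14 ± 0.03) rose in shHES1, but 0 were called without the first shCtrl library and 1 without the first or the second shHES1 library. IL6ST, which encodes gp130, did not pass (log2 fold change -0.04 in shHES1 and -0.05 in shHES4). In shHES4 0 of the 6 were called by edgeR or DESeq2 (3 at an unadjusted p under 0.05 in edgeR). In 6 of 19 alternatives 1 was called there, scaling by total counts among them. LIFR had a log2 fold change of 0.20 in shHES4 (adjusted p 0.0563 in edgeR). Between the hairpins edgeR called 0 of the 6, and 1 was called in 7 of 19 alternatives.

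Of 22 tested STAT3 target genes, 8 rose and 3 fell in shHES4, with a median log2 fold change of 0.08, although STAT3 transcript itself was not called there. In shHES1 against shHES4, 5 were higher and 8 lower. In shHES4 against shCtrl the log2 fold changes of the list ran from -0.64 to 0.95. The genes named for shHES4, the fibrinogen chain genes and FOS, had the smallest adjusted p of the list, and all of them rose. FGG read 120.1, 124.0 and 121.7 CPM in shHES4, against 78.9, 79.0 and 77.7 CPM in shCtrl (log2 fold change 0.63 ± 0.04), and FGB and FGA rose by 0.54 ± 0.04 and 0.45 ± 0.03. FOS, an immediate early gene, rose by 0.71 ± 0.05. In shHES1 4 rose and 1 fell, with a median of 0.02: VEGFA (0.28 ± 0.04), FGL1 (0.30 ± 0.06) and CCND1 (0.11 ± 0.03) among the risers, and BCL2L1, a survival gene, the one that fell (-0.17 ± 0.03). CCND1 lost its call without the first or the third shHES1 library (adjusted p 0.121 and 0.136) and without the first or the second shCtrl library (0.0856 and 0.05003). The count of 5 in shHES1 was 8 without the first or the third shCtrl library and 3 without the third shHES1 library, and it was 8 with scaling by total counts and 12 without a filter on low counts.

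Markers of other cell types were read beside these groups. Of 9 leukocyte markers, CD3E and MS4A1 were at 0 in all libraries and 6 were under 1 CPM everywhere. Their summed level was 82.5 to 86.3 CPM in shHES1, 111.5 to 113.3 CPM in shHES4, and from 85.3 CPM up in shCtrl, where every library lay below those of shHES4. Most of that sum was CD68, a lysosomal protein gene, at 74.2 ± 2.11 CPM in shHES1, 103.7 ± 2.33 CPM in shHES4 and 84.4 ± 7.50 CPM in shCtrl. The sum was thus higher in shHES4, as IRF7, STAT2, IRF1 and IRF9 were. Of the 4 tested leukocyte markers, 1 was called lower in shHES1 and 1 higher in shHES4 against shCtrl. In shHES1 against shHES4, 1 was called lower. Of the 8 members, 0 were called in shHES1, 4 were higher in shHES4, and 5 were lower and 1 higher between the hairpins. In shHES4 the log2 fold changes of the 4 markers ran from -0.85 to 0.30, with 3 positive. The part of this sum in the differences of the members was not tested. The 9 fibroblast and endothelial markers summed to 19.6 to 20.1 CPM in shHES1, 11.1 to 12.5 CPM in shHES4 and 13.9 to 22.1 CPM in shCtrl, with 5 of them under 1 CPM everywhere. For this sum every shHES4 library lay below every shCtrl library. Of the 4 tested, 1 was called higher in shHES1 and 1 lower in shHES4 against shCtrl, and 1 was higher in shHES1 than in shHES4. The part of this sum in the differences of the members was not tested either.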

How the data were processed

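RNA of 9 A549 libraries was extracted with TRIzol and made into libraries with a SMARTer kit, per the labels' protocols. The authors deposited estimated counts per gene with human Ensembl identifiers, and 35.5% of nonzero values were not whole (tolerance 1e-06). The sources used here give no aligner, counter, annotation or use of strand. The builds in the submitters' processing notes are of mouse and were not used. Gene positions, exons and lengths are from GENCODE release 29 on GRCh38. Names came from a reference table for 60463 of 60664 identifiers.

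The deposited estimated counts were rounded, filtered with filterByExpr (16903 genes), scaled by TMM factors (0.984 to 1.02) and fitted over all 9 libraries by the quasi-likelihood F test of edgeR 4.0.16 (R 4.3.3), with 6 residual degrees of freedom and a common biological coefficient of variation of 0.0403. P-values were adjusted by Benjamini-Hochberg over all genes, with a threshold of 0.05. A standard error is the size of the log2 fold change divided by the square root of F. The fit was tested on simulated data. Alternatives were DESeq2 1.42.0, other scalings and filters, the compared libraries alone, a replicate block, a correction for GC content and length, and each library left out; IRF9 summed with its read-through gene was added after seeing the data.

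Members and lists were chosen with earlier results of these data known. Named genes are the 8 members, in each list up to 4 genes with the smallest adjusted p under 0.05 per comparison with shCtrl, the 2 genes nearest in pattern to each called member, genes whose exons overlap a member, HES1 and HES4. Interferon, receptor, kinase and marker genes that were not called were named after their values were seen. A gene of the pathway lists is not reported here by name.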

Additional observations from a re-analysis of the deposited data

How the results depend on the processing

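Of the alternative fold changes of the 8 members, 438 kept their call or lack of call, 18 lost the call, and 0 reversed with a call. Changes of sign without a call were counted as kept. They occurred, among others, in shHES1 against shCtrl for IRF3 (-0.02 to 0.04) and STAT2 (-0.04 to 0.01). IRF1, IRF7 and STAT2 kept their calls in all 19 alternatives, in shHES4 against shCtrl and in shHES1 against shHES4: IRF7 ranged from 0.48 to 0.56 and STAT2 from 0.34 to 0.39 in shHES4, and the highest adjusted p of the 3 genes was 0.0280, for IRF1. The number of members called was 0 in every alternative for shHES1, 3 or 4 for shHES4 and 4 to 6 in shHES1 against shHES4. Genes called in shHES1 against shCtrl numbered 1644, and 1084 to 1800 in the fits without 1 library, lowest without the second shHES1 library; the cause was not tested. Without 1 library, shHES4 against shCtrl gave 682 to 1015 calls and shHES1 against shHES4 1775 to 2936.

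The labels number the replicates 1 to 3 in each group. The 9 same-numbered pairs had correlations of -0.13 to 0.09, with 0 over 0.1. In both other groups together, 0 libraries correlated best with their own number. With 3 libraries per group these correlations cannot show whether same-numbered libraries share more than a number. With the replicate block, calls numbered 1443 in shHES1 and 850 in shHES4 against shCtrl, and 2297 between the hairpins. IRF9 in shHES4 had an adjusted p of 0.0582 and STAT3 in shHES1 against shHES4 of 0.0615 with the block, and 0.0604 and 0.0651 with the correction for GC content and length added. Among list genes, calls were also lost with the block for RIGI (0.0618) and CCND1 (0.0580) in shHES1 and for TLR3 in shHES4 (0.0714), and with block and correction for TLR3 (0.0568) and for LIFR in shHES1 (0.0522). Fitting the 6 compared libraries alone lost RIGI (0.0727) in shHES1 and TLR3 (0.0766) and CLCF1 (0.0812) in shHES4. The correction without the block lost CLCF1 (0.0501), scaling by total counts lost RIGI (0.124), and no filter on low counts lost TLR3 (0.0704) and STAT6 in shHES1 (0.0553).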
